A study of Mus musculus with 36 samples.

Results

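The mitochondrial carrier family, whose genes carry Slc25a symbols, was described across all 36 libraries of an RNA-seq study of mouse skeletal muscle. Members were all rows of the deposited gene table whose symbol starts with Slc25a and that hold a value in at least 1 library. Of 48 such rows 46 held a value, among 17898 genes with a value in the whole table, and 2 rows (Slc25a54 and Slc25a5-ps) held none. Of the 46 members 40 passed the filter on low values and were tested, each with a value in all 36 libraries. The other 6 members (Slc25a2, Slc25a21, Slc25a31, Slc25a41, Slc25a43 and Slc25a48) were too low to be tested and are described by their values.

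The study deleted estrogen-related receptors, orphan nuclear receptors that act on genes of oxidative metabolism, in muscle with Cre recombinase driven by the human alpha-skeletal actin promoter. Knockout-labelled groups were ERRalpha mKO, ERRbeta/ERRgamma dmKO and ERRalpha/ERRgamma dmKO, each set against its own wild-type littermates. Both soleus and extensor digitorum longus (EDL) were taken, with 3 libraries in each of 12 groups. All animals were males 1 year of age, backcrossed for at least 10 generations to C57BL/6JBom, and kept at about 22 °C on chow. The promoter acts in muscle fibres, so other cells of the muscle keep the receptors. As the column names are read here, the wild-type littermates carry floxed alleles without Cre.

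Most carriers of this family sit in the inner mitochondrial membrane, and many exchange a solute of the matrix for a solute of the cytosol. The ADP/ATP carriers and the phosphate carrier feed ATP synthase and export its product, the oxoglutarate/malate and aspartate/glutamate carriers are the membrane steps of the malate-aspartate shuttle, and the carnitine/acylcarnitine carrier brings fatty acids in for oxidation. Other members move amino acids, cofactors, nucleotides or iron, and for several the substrate is not settled. Skeletal muscle, above all its slow oxidative fibres, holds many mitochondria and is rich in the ADP/ATP carrier encoded by Slc25a4.

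Between 13689 and 14975 genes were detected per library, which is the only trace of depth in quantile-normalized log2 signals. Of the deleted genes, Esrra fell in the ERRalpha/ERRgamma class, with a log2 difference of -2.23 in EDL and -0.57 in soleus, and was not called in the ERRalpha class (-0.19 in EDL and 0.33 in soleus). Esrrg was higher, not lower, in both soleus comparisons that name ERRgamma (1.09 in the ERRbeta/ERRgamma class and 1.21 in the ERRalpha/ERRgamma class). Groups are therefore called knockout-labelled. Soleus and EDL of wild types carried the fibre markers of their names, with all 7 slow markers higher and all 8 fast markers lower in soleus. In bulk muscle, fewer fibres of a type and less RNA per fibre cannot be told apart. In the leukocyte list 1 library stood apart. The summed log2 signal of 5 leukocyte genes was 5.71 in knockout-labelled soleus library 1 of the ERRbeta/ERRgamma class. The other libraries of its group had 2.18 and 3.42, and its wild types had 1.68 to 3.32. Member, partner and ratio results of its comparison are given with and without it.

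Levels within wild-type muscle were compared first. The deposited signal behaved roughly as one scaled by length, since the lowest values of rare genes fell by 0.80 ± 0.018 (SE, 1056 genes) in log2 for each doubling of exon length, so levels of different genes are given per length. Slc25a4, the ADP/ATP carrier of muscle and heart, had a log2 signal of 12.04 ± 0.12 in wild-type soleus and 11.21 ± 0.09 in wild-type EDL (SD, n = 9 each). It made up 71.3% to 82.3% of the summed linear signal of the family in every library. Slc25a3, the phosphate carrier, came next with 8.0% to 15%, and Slc25a11, the oxoglutarate/malate carrier, made up 1.91% to 3.87%. On this per-length scale, then, a single carrier gene gave most of the family's signal in both muscles and all classes.

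The order below these genes differed between the muscles. In wild-type soleus Slc25a11 (6.79 ± 0.099) was followed by Slc25a20, the carnitine/acylcarnitine carrier (6.29 ± 0.12), Slc25a12, an aspartate/glutamate carrier (5.46 ± 0.13), and Slc25a5, a second ADP/ATP carrier (5.03 ± 0.25), as log2 signals (SD, n = 9). In wild-type EDL Slc25a11 (6.64 ± 0.16) was followed by Slc25a12 (5.84 ± 0.12), Slc25a20 (5.36 ± 0.31) and Slc25a5 (4.13 ± 0.099). Slc25a12 thus ranked below Slc25a20 in soleus and above it in EDL. Slc25a46 (4.24 ± 0.094) and Slc25a34 (4.18 ± 0.29), neighbours further down, overlapped within 1 SD in soleus. The lowest tested member in both muscles was Slc25a53, with -4.96 ± 0.83 in soleus and -4.0 ± 0.59 in EDL.

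**Figure D1:**
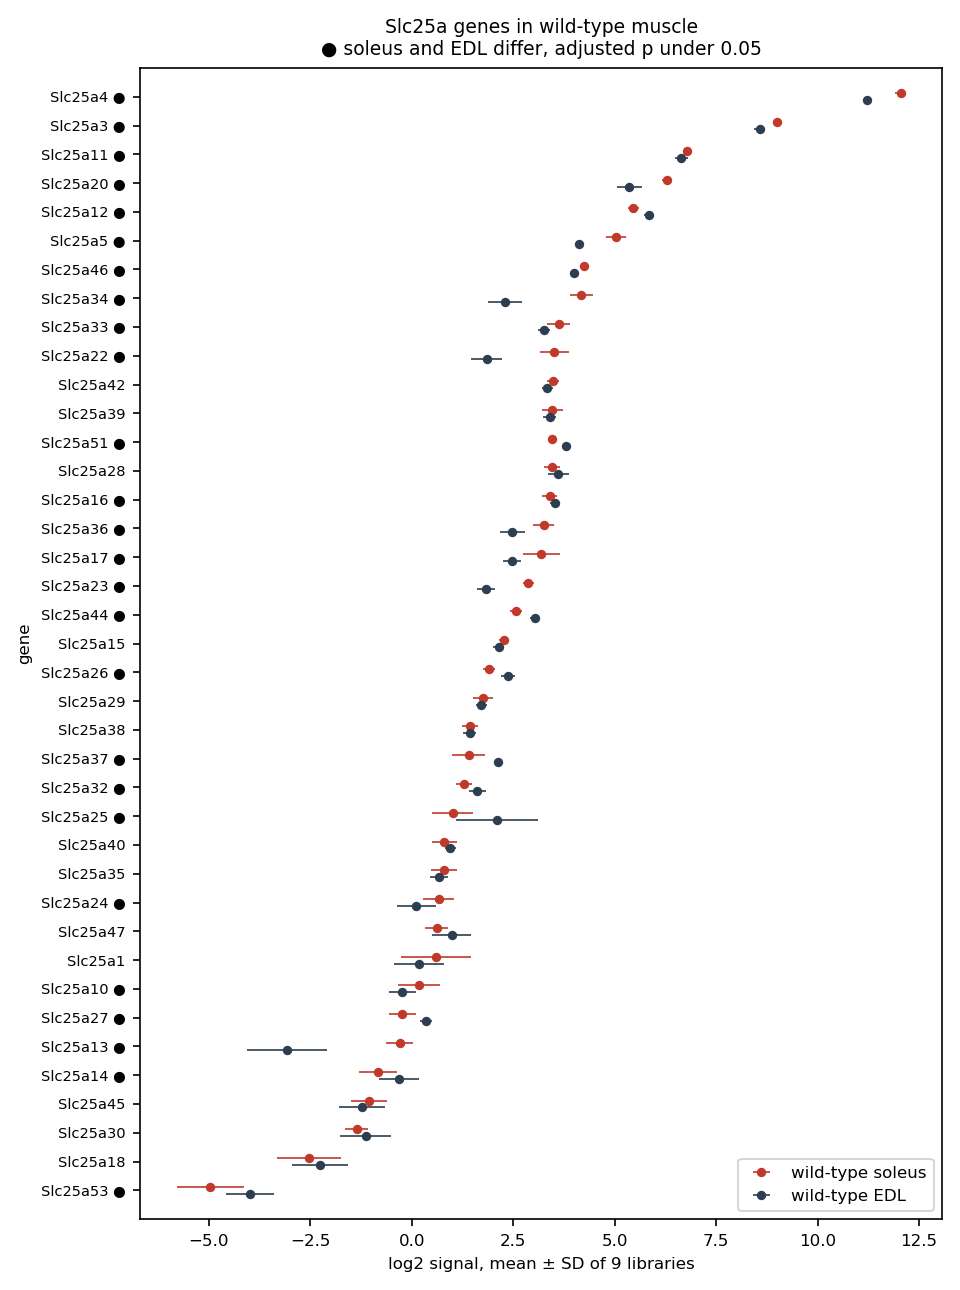
Log2 signal (horizontal axis) of 39 tested Slc25a genes in wild-type soleus and wild-type EDL, mean ± SD of 9 libraries each, ordered by the soleus mean; a dot after the name marks a called difference between the muscles. Slc25a4 stands apart at 12.04 in soleus and 11.21 in EDL, and Slc25a13, Slc25a34 and Slc25a22 lie well to the right in soleus.

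The slow and the fast muscle of wild types were set against each other as a baseline. Of 40 members 15 were higher and 12 lower in soleus (limma, adjusted p under 0.05), against 54.4% of all tested genes called, 30.8% higher and 23.6% lower, and the median difference of the members was 0.10 against 0.08 over all genes. The family as a whole was thus called about as often as other genes, in both directions. The largest rises were in Slc25a13, the second aspartate/glutamate carrier, known as citrin in liver, Slc25a34, whose substrate is not settled, and Slc25a22, a glutamate carrier.

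Slc25a13 had log2 signals of -0.77 (lowest), -0.26 (median) and 0.21 (highest) in soleus, against -4.41, -3.01 and -1.49 in EDL, and differed by 2.78 ± 0.32 (SE, adjusted p = 2.2e-08, limma). Slc25a34 had 3.49, 4.22 and 4.55 in soleus, against 1.57, 2.34 and 2.87 in EDL, a difference of 1.88 ± 0.21. Slc25a22 had 3.05, 3.49 and 4.0 in soleus, against 1.20, 1.88 and 2.54 in EDL, a difference of 1.67 ± 0.14. In none of these 3 genes did the 9 libraries of one muscle overlap those of the other.

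Slc25a23, a calcium-dependent ATP-Mg/phosphate carrier, had 2.68, 2.90 and 3.10 in soleus, against 1.44, 1.89 and 2.06 in EDL (1.05 ± 0.088). Slc25a20 was higher by 0.94 ± 0.088, with 6.12, 6.31 and 6.49 in soleus, against 4.89, 5.40 and 5.75 in EDL. Both ADP/ATP carriers were higher in soleus by similar amounts. Slc25a5 had 4.47, 5.08 and 5.31 in soleus, against 3.96, 4.16 and 4.27 in EDL, a difference of 0.90 ± 0.11. Slc25a4 had 11.73, 12.07 and 12.19 in soleus, against 11.08, 11.25 and 11.32 in EDL, a difference of 0.84 ± 0.056. Slc25a3 had 8.88, 9.01 and 9.17 in soleus, against 8.32, 8.59 and 8.73 in EDL, and was higher by 0.42 ± 0.043. All 3 genes of the ATP supply route were therefore higher in the slow muscle.

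Slc25a25, a calcium-dependent ATP-Mg/phosphate carrier related to Slc25a23, went the other way: it had log2 signals of 0.32, 0.98 and 1.89 in soleus, against 0.88, 1.89 and 3.82 in EDL, a difference of -1.10 ± 0.35. Its libraries overlapped between the muscles. Slc25a53, whose substrate is not settled, was lower by 0.97 on the log2 scale (-6.34, -5.21 and -3.40 in soleus, against -4.69, -4.0 and -2.98 in EDL). That call was lost when 1 was added to the signal before the log (adjusted p = 0.0946). Slc25a37, an iron carrier, had 0.95, 1.25 and 1.97 in soleus, against 2.04, 2.09 and 2.26 in EDL, a difference of -0.71 ± 0.070 with no overlap.

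Slc25a27 and Slc25a14, relatives of the uncoupling proteins, were lower in soleus by 0.59 and 0.51 on the log2 scale. Slc25a27 had -0.78, -0.20 and 0.12 in soleus, against 0.06, 0.32 and 0.56 in EDL. Slc25a14 had -1.64, -0.91 and -0.03 in soleus, against -1.05, -0.16 and 0.49 in EDL. In both genes the muscles overlapped. Slc25a26, the S-adenosylmethionine carrier, was lower by 0.46. Slc25a12 differed by -0.38 ± 0.060, with 5.24, 5.49 and 5.6 in soleus, against 5.72, 5.84 and 6.11 in EDL, with no overlap. Slc25a11 was called higher by only 0.15 ± 0.060 (6.65, 6.81 and 6.92 in soleus, against 6.43, 6.65 and 6.89 in EDL). The calls of Slc25a11, Slc25a14 and Slc25a16 were lost in 10, 10 and 11 of the 18 fits that left out 1 library, that of Slc25a24 in 7 and that of Slc25a10 in 2, and that of Slc25a11 also after recentring of the libraries (0.09, adjusted p = 0.244).

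The ERRalpha/ERRgamma class changed the family most often. In soleus 1 member rose and 13 fell of 40, against 6.84% of all tested genes higher and 5.86% lower, and the median difference was -0.09 for members and 0.11 for all genes. The genes that fell included the ADP/ATP carrier Slc25a4, the phosphate carrier Slc25a3, the acylcarnitine carrier Slc25a20 and the shuttle carriers Slc25a11, Slc25a12 and Slc25a13. By substrate, 2 of 6 adenine nucleotide and phosphate carriers fell, 5 of 10 amino acid and glutathione carriers, 2 of 9 cofactor and nucleotide carriers, and neither of the 2 iron carriers. All differences below subtract wild type from knockout-labelled log2 means, with n = 3 libraries each, and carry ± SE. This SE comes from the limma fit of all 36 libraries and does not measure the spread within the groups compared. A gene with a value in every library therefore has the same SE in each comparison of knockout-labelled with wild-type libraries.

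In soleus Slc25a4 had log2 signals of 10.67, 10.74 and 10.83 in the knockout-labelled ERRalpha/ERRgamma libraries, against 12.08, 12.07 and 12.08 in wild types. The difference was -1.33 ± 0.098 (limma, adjusted p = 6.47e-11), a 2.51-fold decrease. Slc25a3 had 8.42, 8.23 and 8.22, against 8.91, 8.93 and 9.04 in wild types, a difference of -0.67 ± 0.075. For both genes every knockout-labelled library was below every wild-type one. Slc25a5, the second ADP/ATP carrier, had 4.88, 4.44 and 4.70 in knockout-labelled soleus, against 5.31, 4.82 and 5.28 in wild types, and its difference of -0.47 ± 0.19 was not called (adjusted p = 0.11, and 0.0453 after recentring).

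The malate-aspartate shuttle carriers were lower together in soleus. Slc25a11 had 5.94, 6.14 and 6.09 in knockout-labelled libraries, against 6.68, 6.85 and 6.85 in wild types (-0.74 ± 0.10). Slc25a12 had 4.87, 4.76 and 4.81, against 5.49, 5.53 and 5.6 in wild types (-0.73 ± 0.10). Slc25a13 had -1.91, -3.67 and -2.41, against -0.77, -0.33 and -0.77 in wild types, a difference of -2.04 ± 0.56. The groups did not overlap in any of the 3 genes, but the call of Slc25a13 was lost without knockout-labelled library 2 (-1.54, adjusted p = 0.115) and without wild-type library 2 (adjusted p = 0.0588).

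Slc25a20 had 5.35, 5.68 and 5.81 in knockout-labelled soleus, against 6.4, 6.31 and 6.34 in wild types (-0.74 ± 0.15). Slc25a34 had 1.79, 2.61 and 3.62, against 4.09, 4.22 and 4.29 in wild types (-1.53 ± 0.36). Its knockout-labelled libraries were spread widely, and without library 1 of that group the difference was -1.09 (adjusted p = 0.0571). Slc25a29, a carrier of basic amino acids, had 0.61, 0.98 and 0.67, against 1.52, 1.99 and 1.60 in wild types (-0.95 ± 0.24). Slc25a22 had 2.47, 2.00 and 3.01, against 3.05, 3.68 and 3.49 in wild types (-0.91 ± 0.24). Slc25a33, a pyrimidine nucleotide carrier, had 2.52, 2.66 and 2.36, against 3.52, 3.35 and 3.27 in wild types (-0.87 ± 0.16). The groups did not overlap in any of these genes. Slc25a42, Slc25a15 and Slc25a46 also fell, by 0.71, 0.65 and 0.38 on the log2 scale. The call of Slc25a22 was lost without knockout-labelled library 2 (-0.67, adjusted p = 0.11) or wild-type library 2, and that of Slc25a29 without wild-type library 2 (adjusted p = 0.0578).

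The single rise in soleus was in Slc25a53, at -3.73, -3.43 and -4.08 in knockout-labelled libraries, against -5.39, -6.34 and -5.35 in wild types (1.94 ± 0.48). These are among the lowest values of the family, and adding 1 to the signal before the log left a difference of 0.08 that was not called (adjusted p = 0.172). Slc25a25 had 0.68, -0.21 and 2.02 in knockout-labelled soleus, against 0.87, 0.32 and 0.45 in wild types, with no difference beyond the spread (0.28 ± 0.61). Over all genes 915 were called higher and 785 lower in this comparison, and 551 and 910 after recentring of the libraries, under which 1 member was higher and 14 lower. Summed log2 signals of several marker lists moved in this comparison without overlap: leukocyte genes had 3.66 to 3.89 in knockout-labelled soleus, against 2.52 to 3.54 in wild types, and fibroblast genes 8.63 to 8.84, against 7.64 to 8.61. Satellite cell genes had 1.66 to 2.21, against 1.3 to 1.48, while endothelial genes had 5.86 to 6.10, against 6.17 to 6.20, and brown fat genes 2.59 to 3.16, against 3.25 to 3.78. Of single markers Actn3 was called higher and Tnnt3 and Cidea lower, and none of the leukocyte, fibroblast, satellite cell or endothelial markers was called. The part of these cells in the carrier results was not tested.

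In EDL of the ERRalpha/ERRgamma class 1 member rose and 14 fell of 40, against 11.1% of all tested genes higher and 6.95% lower. The median difference was -0.29 for members, against 0.13 for all genes. Carriers of the ATP supply route, of the malate-aspartate shuttle and of acylcarnitine fell here too, and Slc25a5 was among them. By substrate, 3 of 6 adenine nucleotide and phosphate carriers fell and 1 rose, 4 of 10 amino acid and glutathione carriers fell, 3 of 9 cofactor and nucleotide carriers fell, and neither iron carrier passed the test. Over all genes 1487 were higher and 929 lower, and 1009 and 1053 after recentring, under which 1 member was higher and 15 lower.

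Slc25a3 had 7.07, 7.03 and 7.11 in knockout-labelled EDL, against 8.32, 8.48 and 8.59 in wild types. The difference was -1.39 ± 0.075 (limma, adjusted p = 8.4e-15), a 2.63-fold decrease and the smallest adjusted p of the family. Slc25a4 had 10.12, 10.28 and 10.32, against 11.27, 11.32 and 11.17 in wild types (-1.01 ± 0.098). Slc25a5 had 2.76, 3.23 and 3.71, against 4.20, 4.14 and 4.18 in wild types (-0.94 ± 0.19). In all 3 genes the groups stood apart, with Slc25a5 the most spread among knockout-labelled libraries.

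Slc25a11 had 5.29, 5.25 and 5.40 in knockout-labelled EDL, against 6.49, 6.89 and 6.65 in wild types (-1.36 ± 0.10, a 2.58-fold decrease). Slc25a12 had 4.57, 4.42 and 4.51, against 5.72, 5.88 and 5.74 in wild types (-1.28 ± 0.10). For these genes the gap between the groups was over 1 log2 unit. Slc25a13, which wild-type EDL holds at a low level, had -4.54, -3.57 and -3.11 in knockout-labelled libraries, against -3.64, -3.98 and -3.01 in wild types, and did not differ beyond the spread (-0.19 ± 0.56).

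Slc25a34 had the largest fall of the family in EDL, with -0.65, 0.33 and 0.98 in knockout-labelled libraries, against 2.08, 2.34 and 2.72 in wild types (-2.16 ± 0.36, a 4.46-fold decrease). Slc25a22 had 0.54, 0.98 and 1.04, against 1.73, 1.46 and 1.89 in wild types (-0.84 ± 0.24). Slc25a20 had 4.79, 5.07 and 5.29, against 5.49, 5.40 and 5.68 in wild types (-0.47 ± 0.15). The groups did not overlap in these 3 genes, although their sizes differed by more than 1 log2 unit. Smaller falls were found in Slc25a15, the ornithine carrier (-0.67), Slc25a39, a glutathione carrier (-0.61), Slc25a42, a coenzyme A carrier (-0.52), Slc25a26 (-0.46) and Slc25a46, an outer membrane protein linked to mitochondrial shape (-0.41). Slc25a53 had -3.02, -2.87 and -2.82, against -4.33, -4.0 and -4.34 in wild types, with no overlap, and was called only under some alternatives (1.32, adjusted p = 0.0313 with no filter).

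The calls of 3 of these genes depended on single libraries. Slc25a20 was not called without knockout-labelled library 1 (-0.34, adjusted p = 0.176) or 2 or without wild-type library 1 or 3, Slc25a42 without knockout-labelled library 1 or 2 or wild-type library 3 (-0.40, adjusted p = 0.118), and Slc25a22 without knockout-labelled library 1 (-0.68, adjusted p = 0.0945) or wild-type library 3.

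The rise in EDL was in Slc25a25, with 1.53, 4.26 and 3.58 in knockout-labelled libraries, against 0.88, 1.47 and 1.40 in wild types. The groups did not overlap, but the spread was wide (1.88 ± 0.61, adjusted p = 0.0301). Without knockout-labelled library 2 the difference was 1.31 (adjusted p = 0.201), and the call was lost in 5 of 6 fits that left out 1 library, namely knockout-labelled library 2 or 3 and each wild-type library. Slc25a25 was also among the most variable members in wild types, with an SD of 1.01 in EDL. Its exons overlap those of Naif1 on the opposite strand. In the same comparison 5 of 7 slow-fibre markers rose (Atp2a2, Myh7, Tnnc1, Tnni1 and Tnnt1), with a summed log2 signal of 4.48 to 7.12 in knockout-labelled EDL, against 4.46 to 6.41 in wild types and at least 13.3 in every soleus library. None of the fibroblast, leukocyte, fat, red blood cell or satellite cell markers was called there, and 1 of 5 endothelial markers, Kdr, fell by 0.60 on the log2 scale. Summed log2 signals were nonetheless higher without overlap for satellite cell genes (1.63 to 2.18 in knockout-labelled EDL, against 0.99 to 1.55). Brown fat genes were higher as well (-0.08 to 0.36, against -0.62 to -0.23). The other non-fibre lists overlapped between the groups. The part of these cells in the carrier results was not tested.

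**Figure D2:**
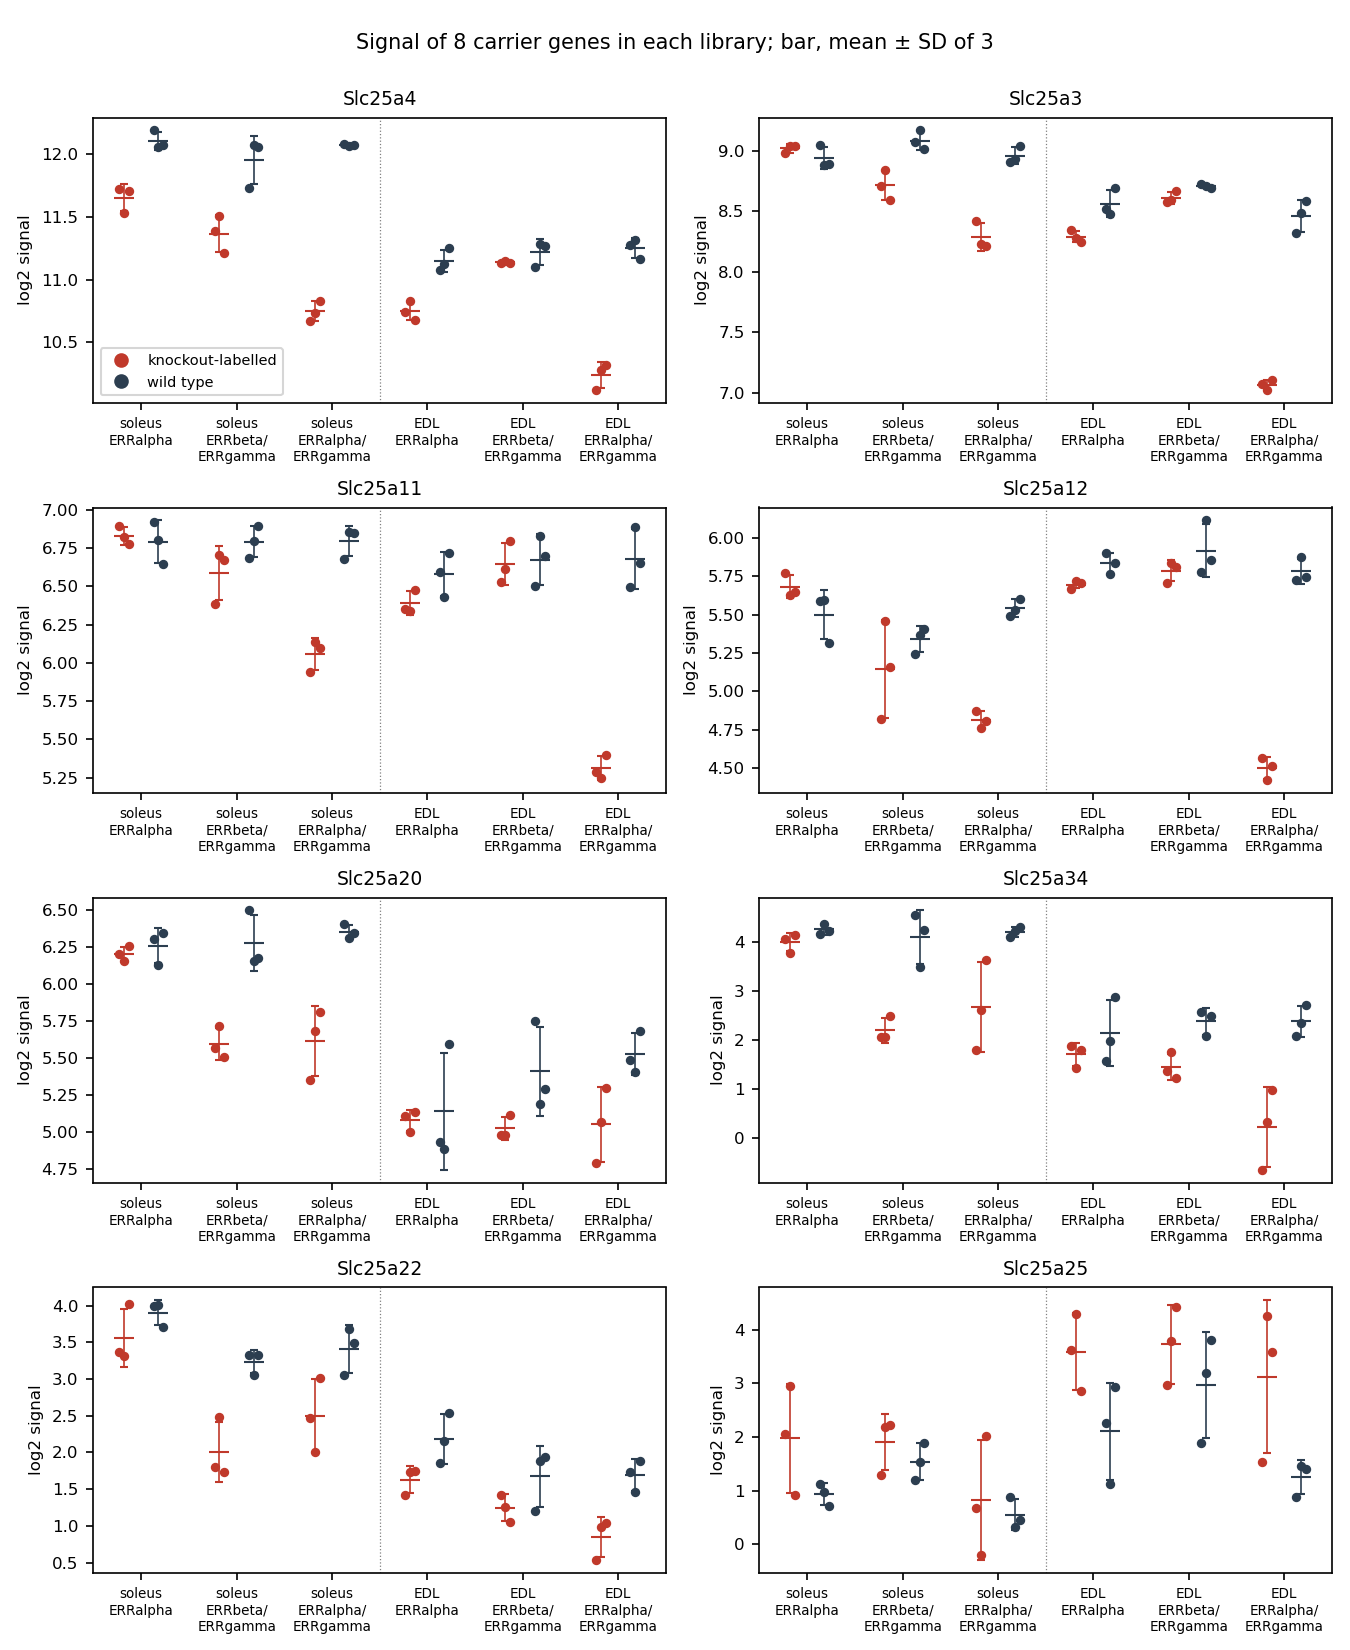
Log2 signal (vertical axis, a separate range for each gene) of 8 carrier genes in every library, by muscle and deletion class, knockout-labelled left of wild type; points are libraries and bars the mean ± SD of 3. In the ERRalpha/ERRgamma class Slc25a4, Slc25a3, Slc25a11 and Slc25a12 are below every wild type in both muscles, while Slc25a20, Slc25a34 and Slc25a22 are also low in soleus of the ERRbeta/ERRgamma class.

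Slc25a34 lies on chromosome 4 (141618824 to 141623821, minus strand, GRCm38), Slc25a4 on chromosome 8 (46206797 to 46211284, minus), Slc25a3 on chromosome 10 (91116574 to 91124059, minus) and Slc25a20 on chromosome 9 (108662088 to 108684641, plus). Promoters of RefSeq (GRCm38.p6, 250 bases before to 50 after the start) matched 36 of the 48 rows. They are shown for Slc25a34, Slc25a4 and Slc25a3 because of their large falls, and for Slc25a20 because its window holds a match to a searched motif, as those of Slc25a34 and Slc25a3 do. The windows read 5′ to 3′ on the gene's strand, with the matched letters in capitals.
Slc25a34, chr4:141623785-141624084, minus: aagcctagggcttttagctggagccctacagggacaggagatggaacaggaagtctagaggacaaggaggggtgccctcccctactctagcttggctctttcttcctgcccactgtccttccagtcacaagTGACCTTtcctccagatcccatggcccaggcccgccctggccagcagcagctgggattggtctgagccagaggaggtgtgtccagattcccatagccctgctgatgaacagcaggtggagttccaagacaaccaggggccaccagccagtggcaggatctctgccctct
Slc25a4, chr8:46211013-46211312, minus: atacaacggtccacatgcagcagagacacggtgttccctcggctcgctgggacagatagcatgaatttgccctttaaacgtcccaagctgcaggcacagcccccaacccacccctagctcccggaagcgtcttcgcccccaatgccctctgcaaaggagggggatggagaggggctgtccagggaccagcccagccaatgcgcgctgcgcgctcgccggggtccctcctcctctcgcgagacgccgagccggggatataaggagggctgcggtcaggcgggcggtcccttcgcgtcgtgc
Slc25a3, chr10:91123918-91124217, minus: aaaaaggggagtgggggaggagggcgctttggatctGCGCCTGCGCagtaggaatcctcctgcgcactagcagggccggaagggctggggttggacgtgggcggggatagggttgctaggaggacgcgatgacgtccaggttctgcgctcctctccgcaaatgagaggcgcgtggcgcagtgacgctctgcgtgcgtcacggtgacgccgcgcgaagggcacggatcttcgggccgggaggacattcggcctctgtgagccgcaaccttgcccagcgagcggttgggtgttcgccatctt
Slc25a20, chr9:108661886-108662185, plus: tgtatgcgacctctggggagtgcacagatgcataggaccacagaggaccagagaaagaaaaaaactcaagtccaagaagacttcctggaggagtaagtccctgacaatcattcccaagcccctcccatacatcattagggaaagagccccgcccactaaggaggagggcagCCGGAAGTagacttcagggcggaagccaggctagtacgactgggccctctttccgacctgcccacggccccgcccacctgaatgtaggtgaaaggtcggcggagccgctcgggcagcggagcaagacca

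The letters TNAAGGTCA, a form of the site that estrogen-related receptors bind, were searched on both strands and were found in 0 of the 36 matched Slc25a genes, against 1.43% of all 27025 genes with a promoter. Their core AAGGTCA, which TNAAGGTCA contains, was found in 1 of 36, against 5.38% of all genes: in Slc25a34 it lies on the opposite strand, 119 bases before the start, as the capitals TGACCTT show. Letters of a nuclear respiratory factor site, with any base allowed at a central position, were searched as well. They were found in Slc25a3, on the opposite strand 214 bases before the start, and in Slc25a31 (5.56%, against 5.19% of all genes). The stretch matched in Slc25a3 is not a palindrome. Letters of an ETS-type site, CCGGAAGT, were found in Slc25a20, 79 bases before the start (2.78%, against 4.31%). Both of these last motifs were added after the first search was seen. No window of Slc25a4 held any of the 4 motifs, which says only that these letters are not in it.

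The 2 muscles were then compared in the ERRalpha/ERRgamma class through the difference of their changes. Of 40 members 5 had a change that was more positive in soleus than in EDL and 0 the reverse, against 2.07% of all tested genes called, 1.5% and 0.57% in these directions. The phosphate carrier Slc25a3 fell by 0.67 in soleus and by 1.39 in EDL on the log2 scale, a difference of 0.72 ± 0.11 (SE, adjusted p = 5.29e-05). It was called in all 20 other fits tried. Slc25a39 (0.64 ± 0.17), Slc25a11 (0.63 ± 0.15) and Slc25a12 (0.55 ± 0.15) were also called. Slc25a39 had a change of 0.03 in soleus, and fell by 0.61 in EDL. Slc25a4, which fell in both muscles, differed by -0.32 ± 0.14 between them and was not called (adjusted p = 0.384). Nor was Slc25a13 called (-1.85 ± 0.79, adjusted p = 0.364), although adding 1 to the signal gave a called difference (-0.48, adjusted p = 0.0122).

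Of these differences, that of Slc25a12 was lost without any 1 of the 12 libraries, that of Slc25a39 in 7 and that of Slc25a11 in 3 of these 12 fits. Without wild-type soleus library 1 only Slc25a3 was called.

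**Figure D3:**
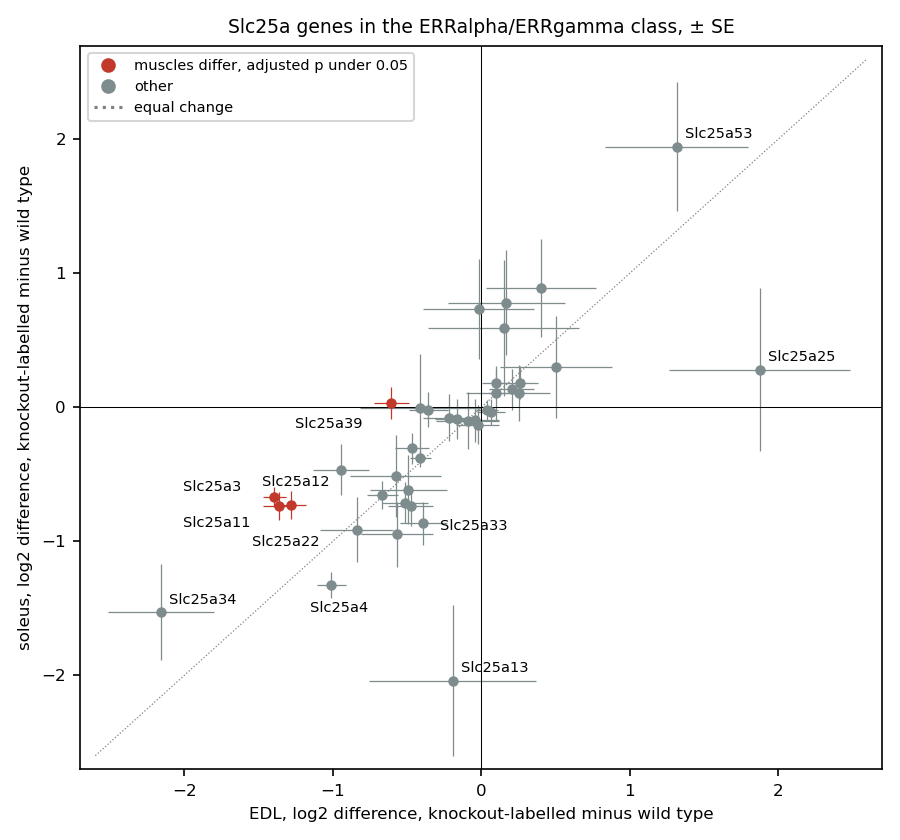
Log2 difference, knockout-labelled minus wild type, of 39 tested Slc25a genes in the ERRalpha/ERRgamma class, soleus on the vertical and EDL on the horizontal axis. Each group has 3 libraries, and ± SE is from the fit of all 36 libraries. The dotted line marks an equal change. Slc25a3, Slc25a11, Slc25a12 and Slc25a39 (red) lie above the line, with called differences of 0.55 to 0.72, and Slc25a4 lies below it without a call.

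In soleus of the ERRbeta/ERRgamma class 0 members rose and 9 fell of 40, against 3.16% of all tested genes higher and 3.55% lower, with a median of -0.14 for members and 0.05 for all genes. The falls were again in Slc25a34, Slc25a22, Slc25a20, Slc25a4 and Slc25a3 and in carriers of basic amino acids, coenzyme A and pyrimidine nucleotides. The shuttle carriers were not among them. After recentring, 9 members were still lower and 0 higher, while the split over all genes moved to 304 higher and 605 lower, against 423 and 475 before. Those counts over all genes depended on single libraries: they were 188 higher and 208 lower without knockout-labelled library 1, 1316 and 823 without knockout-labelled library 2, and 169 and 271 without wild-type library 3.

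Slc25a34 had 2.05, 2.05 and 2.49 in knockout-labelled soleus of this class, against 4.55, 3.49 and 4.23 in wild types (-1.89 ± 0.36, a 3.72-fold decrease). Slc25a22 had 1.8, 2.48 and 1.74, against 3.33, 3.05 and 3.33 in wild types (-1.23 ± 0.24). Slc25a20 had 5.57, 5.71 and 5.51, against 6.49, 6.16 and 6.18 in wild types (-0.68 ± 0.15). Each of these genes stood below wild type in every library. Slc25a4 had 11.39, 11.50 and 11.21, against 11.73, 12.07 and 12.06 in wild types (-0.59 ± 0.098). Slc25a3 had 8.71, 8.84 and 8.59, against 9.07, 9.17 and 9.01 in wild types (-0.37 ± 0.075). The falls of these last genes were smaller than in the ERRalpha/ERRgamma class, and the groups still did not overlap.

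Slc25a29 had 0.13, 1.3 and 1.39 in knockout-labelled soleus, against 1.86, 1.79 and 1.97 in wild types (-0.93 ± 0.24). Slc25a42 had 2.02, 2.99 and 2.89, against 3.58, 3.37 and 3.36 in wild types (-0.80 ± 0.16). Slc25a36, a pyrimidine nucleotide carrier, had 2.00, 2.51 and 3.05, against 2.99, 3.28 and 3.23 in wild types (-0.65 ± 0.18). In these 3 genes the lowest value was that of library 1, the one with the high leukocyte signal, and in Slc25a36 the groups overlapped. Slc25a33 fell by 0.64 on the log2 scale. Without library 1, 6 members were called lower, and Slc25a29 (-0.53, adjusted p = 0.224), Slc25a33 (-0.61, adjusted p = 0.0613) and Slc25a36 (-0.38, adjusted p = 0.266) were not. These 3 calls were also lost without wild-type library 3, and that of Slc25a36 without wild-type library 2.

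Of the shuttle carriers in this comparison, Slc25a11 had 6.38, 6.70 and 6.67 in knockout-labelled soleus, against 6.69, 6.80 and 6.89 in wild types (-0.20 ± 0.10, adjusted p = 0.252). Slc25a12 had 4.82, 5.46 and 5.16, against 5.24, 5.37 and 5.40 in wild types (-0.19 ± 0.10). In both genes the groups overlapped, and Slc25a12 was called without knockout-labelled library 2 (-0.35, adjusted p = 0.0132). Slc25a13 had -1.34, -1.48 and -1.72, against 0.21, -0.23 and -0.26 in wild types, and its difference of -1.42 ± 0.56 was not called (adjusted p = 0.13), but was after adding 1 to the signal (-0.52, adjusted p = 9.95e-05). Slc25a5 had 5.53, 4.73 and 4.88, against 4.47, 5.05 and 5.01 in wild types (0.21 ± 0.19), and Slc25a25 had 1.29, 2.19 and 2.23, against 1.19, 1.54 and 1.89 (0.36 ± 0.61). Neither differed beyond the spread. All 9 calls of this comparison were lost in a fit of its 6 libraries alone, with adjusted p of 0.08 for Slc25a34 and up to 0.432 for Slc25a36, without a change of direction. That fit called 4 of all genes, against 898 in the fit of all libraries.

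In EDL of the ERRbeta/ERRgamma class 0 members were called (limma), against 0.218% of all tested genes, and 5 had an unadjusted p under 0.05. The share of all genes at that unadjusted threshold was not counted. Slc25a4 had 11.13, 11.15 and 11.14 in knockout-labelled libraries, against 11.10, 11.28 and 11.27 in wild types (-0.08 ± 0.098). Slc25a3 had 8.58, 8.59 and 8.67, against 8.73, 8.71 and 8.69 in wild types (-0.10 ± 0.075). These carriers of the ATP supply route differed by less than 0.11 log2 units. Slc25a20 had 4.98, 4.98 and 5.12, against 5.75, 5.19 and 5.29 in wild types, with no overlap, but the difference of -0.38 ± 0.15 was not called (adjusted p = 0.518). Slc25a5 (-0.02 ± 0.19), Slc25a11 (-0.03 ± 0.10), Slc25a12 (-0.13 ± 0.10), Slc25a13 (-0.77 ± 0.56) and Slc25a25 (0.76 ± 0.61) were not called. The slow-fibre markers Myl2 and Myl3 fell in this comparison. The summed slow signal was 4.04 to 5.16 in knockout-labelled EDL, against 6.42 to 6.59 in wild types. Summed signals were also lower without overlap for fat genes (6.94 to 7.15, against 7.34 to 7.49) and brown fat genes (-1.21 to -0.46, against -0.01 to 0.38). Satellite cell genes were higher (1.34 to 1.48, against 0.73 to 1.16). The part of these lists in the carrier values was not tested.

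The ERRalpha class changed few members. In soleus 2 rose and 1 fell, against 0.464% and 0.247% of all tested genes. Slc25a39 had 4.21, 3.78 and 3.84 in knockout-labelled soleus, against 3.45, 3.36 and 3.47 in wild types (0.52 ± 0.12). Every knockout-labelled library was above every wild-type one. Slc25a4 had 11.72, 11.53 and 11.71, against 12.19, 12.05 and 12.07 in wild types (-0.45 ± 0.098, adjusted p = 0.0259). Slc25a3 (0.08 ± 0.075), Slc25a11 (0.04 ± 0.10), Slc25a12 (0.18 ± 0.10), Slc25a20 (-0.06 ± 0.15), Slc25a5 (0.03 ± 0.19), Slc25a13 (-0.21 ± 0.56) and Slc25a25 (1.04 ± 0.61) were not called. The call of Slc25a4 was lost without any 1 of the 6 libraries (adjusted p of 0.0524 to 0.134) and that of Slc25a39 in 5 of 6 such fits. Summed marker signals were lower without overlap for fat genes (7.66 to 7.88 in knockout-labelled soleus, against 8.0 to 8.18). Satellite cell genes were higher without overlap (1.69 to 2.2, against 0.86 to 1.64). The other marker lists overlapped between the groups. The part of these lists in the carrier values was not tested.

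In EDL of the ERRalpha class 0 members rose and 3 fell, against 1.82% and 1.46% of all tested genes. Slc25a15 had 1.55, 1.53 and 1.64 in knockout-labelled EDL, against 2.06, 2.27 and 1.87 in wild types (-0.49 ± 0.11). Slc25a4 had 10.74, 10.83 and 10.68, against 11.08, 11.13 and 11.25 in wild types (-0.40 ± 0.098). Slc25a3 had 8.34, 8.28 and 8.25, against 8.52, 8.48 and 8.69 in wild types (-0.27 ± 0.075). The groups did not overlap in these 3 genes. Slc25a11 had 6.35, 6.34 and 6.48, against 6.6, 6.43 and 6.72 in wild types, which overlapped (-0.19 ± 0.10). Slc25a5 (-0.15 ± 0.19), Slc25a12 (-0.14 ± 0.10), Slc25a20 (-0.06 ± 0.15), Slc25a13 (-1.27 ± 0.56) and Slc25a25 (1.49 ± 0.61, adjusted p = 0.22) were not called, though Slc25a13 was without knockout-labelled library 1 (-2.05, adjusted p = 0.0464). The call of Slc25a3 was lost in 5 of 6 fits without 1 library (adjusted p up to 0.227) and after recentring (adjusted p = 0.0518), that of Slc25a4 without knockout-labelled library 1 or 3 or wild-type library 3, and that of Slc25a15 without wild-type library 2 (adjusted p = 0.0666). Summed marker signals were lower without overlap for red blood cell genes (6.97 to 7.54 in knockout-labelled EDL, against 8.24 to 8.51). Endothelial genes had 4.95 to 5.11, against 5.17 to 5.44. The part of these lists in the carrier values was not tested.

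**Figure D4:**
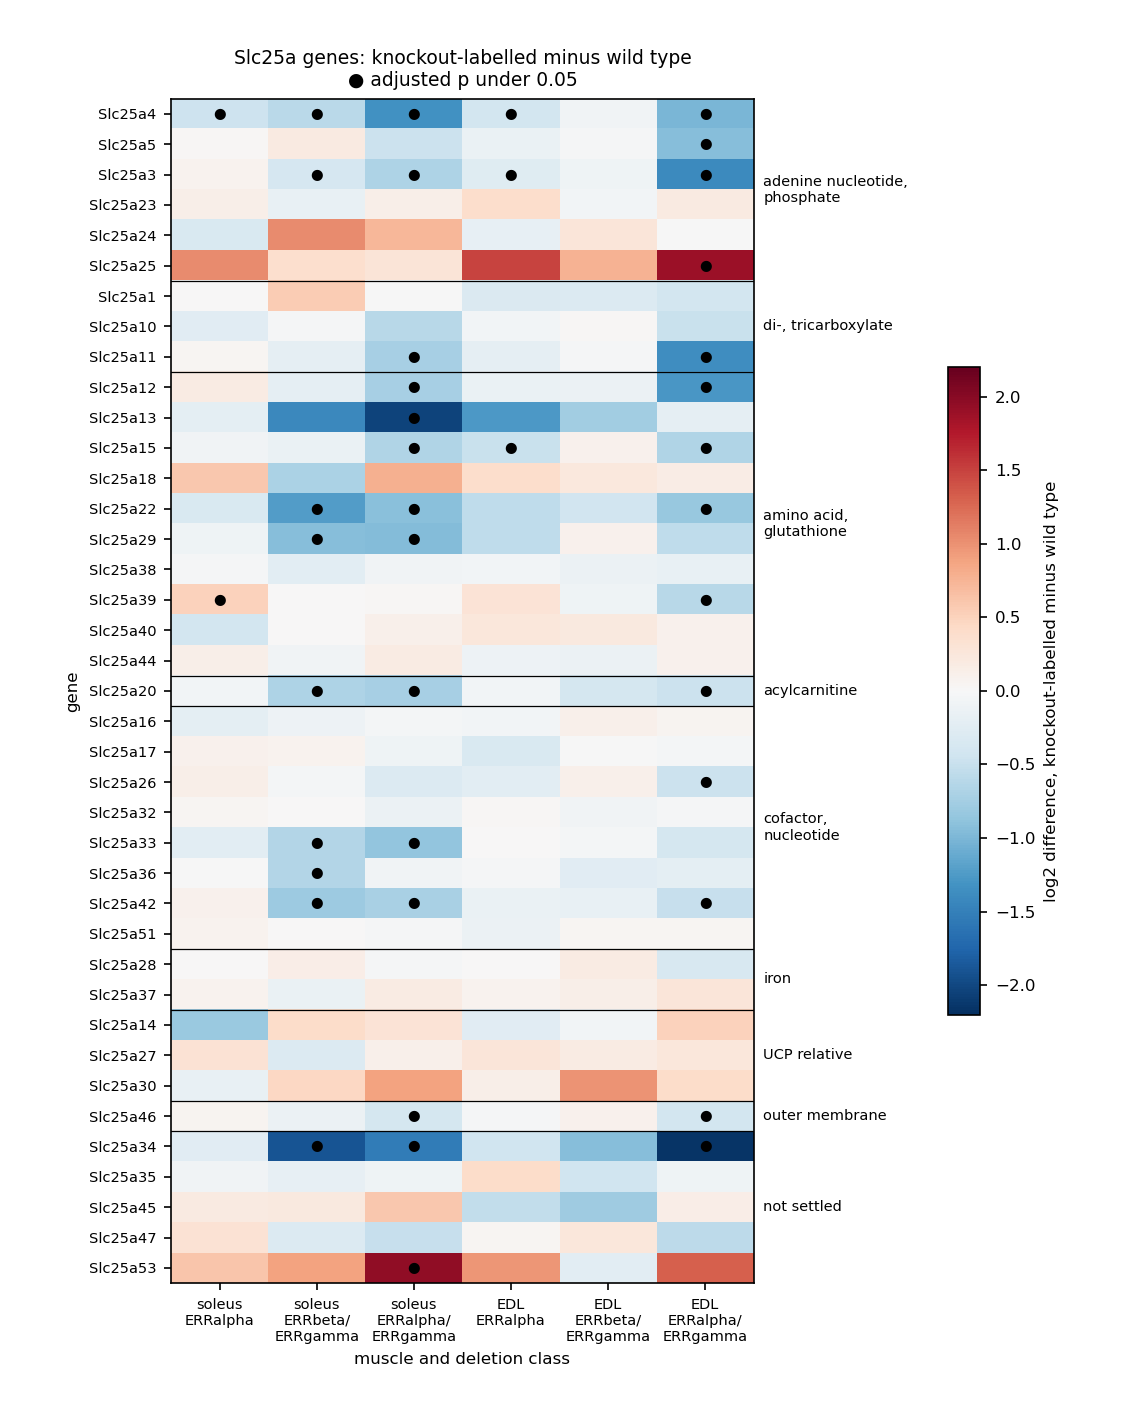
Log2 difference, knockout-labelled minus wild type (colour), of 39 tested Slc25a genes (rows, grouped by substrate) in the 6 comparisons (columns); a dot marks an adjusted p under 0.05. Blue cells with dots are most frequent in the ERRalpha/ERRgamma columns, with 13 falls drawn in each muscle, and EDL of the ERRbeta/ERRgamma class has none.

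Whether the ERRalpha/ERRgamma class changed a member more than another class was tested as a difference of changes within each muscle, each class against its own wild types. In soleus the ERRalpha/ERRgamma change was below the ERRalpha change in 8 members and above it in 0, against 4.75% of all tested genes called, 2.93% below and 1.83% above. The largest were in Slc25a12 (-0.91 ± 0.15), Slc25a4 (-0.88 ± 0.14), Slc25a42 (-0.81 ± 0.22) and Slc25a11 (-0.78 ± 0.15), of which Slc25a42 was not called in 6 of 12 fits without 1 library. Against the ERRbeta/ERRgamma change 1 member was lower, Slc25a4 (-0.74 ± 0.14), with 0 higher, against 1.2% of all genes called, 0.883% lower and 0.322% higher. Without the library with the high leukocyte signal, Slc25a11 (-0.63), Slc25a12 (-0.70) and Slc25a15 (-0.60) were called lower too. The share of all genes called in that fit is not given here. Slc25a34, with falls of 1.53 and 1.89 in these classes, was not among those called. Over all genes the first of these comparisons called 244 higher and 391 lower, and 155 and 495 after recentring, with 10 members lower.

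In EDL the ERRalpha/ERRgamma change was below the ERRalpha change in 8 members and above it in 0, against 4.81% of all genes called, 3.48% below and 1.33% above. Slc25a34 (-1.72 ± 0.51), Slc25a11 (-1.17 ± 0.15), Slc25a12 (-1.14 ± 0.15) and Slc25a3 (-1.12 ± 0.11) had the largest differences, and the call of Slc25a34 was lost in 8 of 12 fits without 1 library. Against the ERRbeta/ERRgamma change 9 were lower and 0 higher, against 6.87% of all genes called, 4.06% lower and 2.81% higher, led by Slc25a11 (-1.34 ± 0.15), Slc25a3 (-1.30 ± 0.11), Slc25a12 (-1.15 ± 0.15) and Slc25a4 (-0.93 ± 0.14). Slc25a11, Slc25a12, Slc25a3 and Slc25a4 were thus called in both comparisons of classes in EDL. Slc25a13 was called in neither, and Slc25a5 was not called against the ERRalpha class (-0.79, adjusted p = 0.0916). Between soleus and EDL, the changes of the ERRalpha and the ERRbeta/ERRgamma class differed in 0 members (limma), against 0.0151% and 0.21% of all genes (0.0526% higher and 0.158% lower in the second). At an unadjusted p under 0.05 there were 5 and 7 members, a threshold at which the share of all genes was not counted. In the ERRbeta/ERRgamma class Slc25a4 and Slc25a42 were called without knockout-labelled soleus library 2 (-0.58 and -0.82), and Slc25a4 also without wild-type soleus library 1 (-0.62).

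Related carriers were set against each other within each library, where a difference of log2 signals is a ratio per length. Slc25a4 exceeded Slc25a5 by 7.01 ± 0.17 in wild-type soleus and 7.07 ± 0.071 in wild-type EDL (SD, n = 9 each), which did not differ beyond the spread (two-sided exact permutation test, p = 0.339, adjusted p = 0.339 over 2 pairs). Slc25a12 exceeded Slc25a13 by 5.76 ± 0.42 in wild-type soleus and by 8.92 ± 0.95 in wild-type EDL, and no libraries overlapped (two-sided exact permutation test, p = 4.11e-05, the smallest that 9 against 9 libraries can give, adjusted p = 8.22e-05). The share of citrin in the aspartate/glutamate carrier signal was thus larger in the slow muscle. Both permutation tests treated the libraries as independent. They took no account of the animals that gave both muscles or of the classes the wild types came from.

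In the ERRalpha/ERRgamma class Slc25a4 exceeded Slc25a5 by 5.80 to 6.30 in knockout-labelled soleus, against 6.77 to 7.24 in wild types. In EDL of this class, where both genes fell, the difference was 6.62 to 7.36 in knockout-labelled libraries, against 6.98 to 7.18 in wild types. In soleus of the other classes it was 6.4 to 6.71 (ERRalpha) and 5.86 to 6.77 (ERRbeta/ERRgamma) in knockout-labelled libraries, against 6.92 to 7.10 and 7.03 to 7.26 in wild types. Without library 1 of the ERRbeta/ERRgamma class, which had the 5.86, its knockout-labelled values were 6.33 and 6.77. In EDL of the ERRalpha class the difference was 6.72 to 7.07 in knockout-labelled libraries, against 7.09 to 7.13 in wild types. The groups did not overlap in soleus of any class or in EDL of the ERRalpha class, but 3 libraries against 3 cannot give an exact permutation p under 0.1, which each of them reached. The Slc25a12 excess over Slc25a13 was larger in knockout-labelled soleus of the ERRalpha/ERRgamma class (6.78 to 8.43, against 5.86 to 6.37 in wild types). It was also larger in soleus of the ERRbeta/ERRgamma class (6.15 to 6.93, against 5.03 to 5.66), with 6.93 and 6.88 without library 1. Neither comparison overlapped, and both gave the same exact permutation p of 0.1. In soleus of the ERRalpha class and in EDL of every class the groups overlapped.

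**Figure D5:**
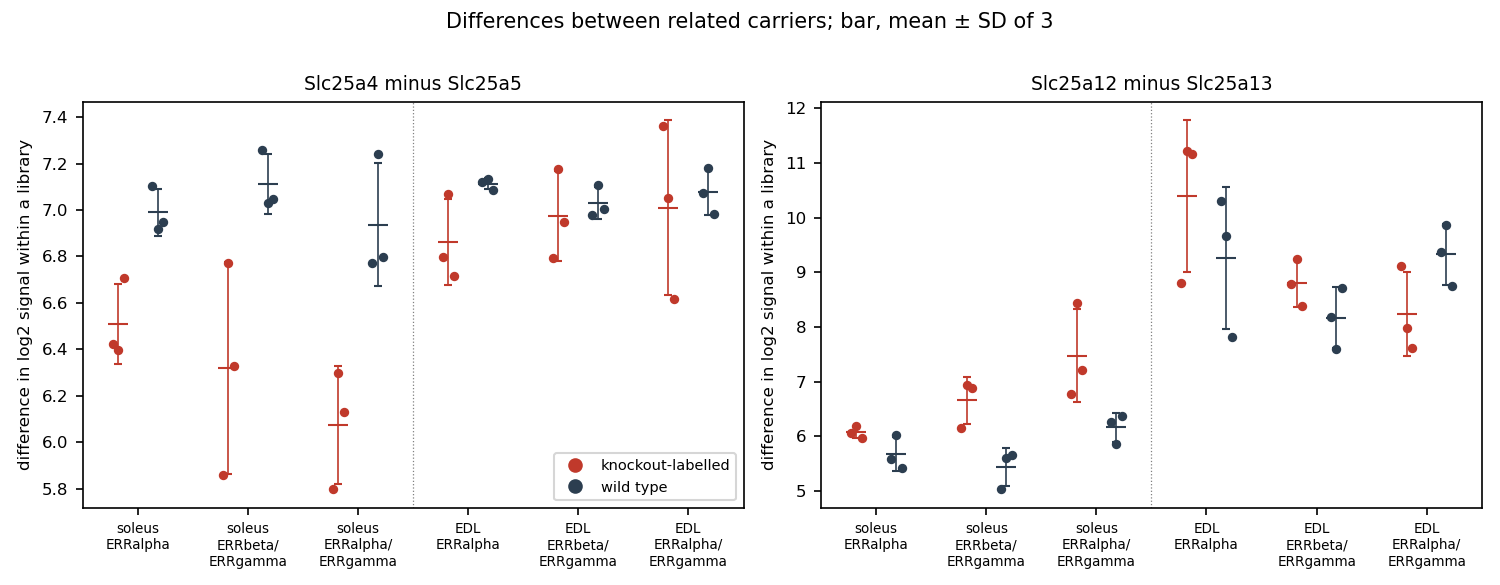
Difference in log2 signal within a library (vertical axis) between Slc25a4 and Slc25a5 (left) and between Slc25a12 and Slc25a13 (right), by muscle and deletion class, knockout-labelled left of wild type; points are libraries and bars the mean ± SD of 3. In soleus the Slc25a4 excess is lower in all knockout-labelled groups (5.80 to 6.77) than in their wild types (6.77 to 7.26), in EDL it is lower without overlap in the ERRalpha class alone (6.72 to 7.07, against 7.09 to 7.13), and the Slc25a12 excess is larger in wild-type EDL than in wild-type soleus. The Slc25a12 excess is also larger in knockout-labelled soleus of the ERRalpha/ERRgamma and ERRbeta/ERRgamma classes than in their wild types.

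Genes that work with the carriers were given from a list of 25 partners. In the ERRalpha/ERRgamma class 11 of 25 fell in soleus, against 5.86% of all tested genes, and 15 in EDL, against 6.95%, with 0 higher in either. The malate and aspartate enzymes of the shuttle fell with its carriers: the cytosolic malate dehydrogenase Mdh1 had 8.07, 8.04 and 7.98 in knockout-labelled soleus, against 9.15, 9.13 and 9.06 in wild types (-1.08 ± 0.097). In EDL Mdh1 had 6.4, 6.22 and 6.53, against 8.04, 8.42 and 8.36 in wild types (-1.89 ± 0.097). Mdh2, Got1 and Got2 fell as well, by 0.67, 0.42 and 0.44 on the log2 scale in soleus and by 1.48, 1.64 and 1.94 in EDL. The glycerol phosphate shuttle enzymes Gpd1 and Gpd2 were not called in either muscle (0.65 and 0.18 in soleus, 0.46 and -0.11 in EDL).

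Several partners of ATP export and of fatty acid entry fell too. Ckmt2, the mitochondrial creatine kinase of muscle, fell by 0.81 in soleus and 1.77 in EDL on the log2 scale, and the outer membrane channel Vdac1 by 0.59 and 0.55. Vdac3 was not called (-0.03 in soleus and -0.17 in EDL). Cpt2, the carnitine palmitoyltransferase of the inner membrane, fell by 0.66 in soleus and 1.05 in EDL, and in soleus of the ERRbeta/ERRgamma class Cpt1b and Cpt2 fell by 0.73 and 0.78 beside Slc25a20. In that comparison 5 of 25 partners fell, against 3.55% of all tested genes. Without knockout-labelled library 1, a fit of the partners added after the data were seen, these were 2, Cpt1b (-0.46, adjusted p = 0.0245) and Cpt2 (-0.63, adjusted p = 0.00565), while Mdh1, Mpc1 and Vdac1 were not called. In EDL of the ERRalpha class 3 fell (Mdh1, Mdh2 and the pyruvate carrier subunit Mpc2), against 1.46% of all genes, and 0 in the remaining 2 comparisons of knockout-labelled with wild-type libraries. Among carriers outside the family, the pyruvate carrier subunits Mpc1 and Mpc2 fell in both muscles of the ERRalpha/ERRgamma class, by 0.43 and 0.50 in soleus and 0.84 and 1.19 in EDL.

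Relatives of the family carry other symbols. Of Ucp2, Ucp3, Mtch1 and Mtch2, only Mtch2, a carrier homolog of the outer membrane, was called between knockout-labelled and wild-type libraries, and it fell in the ERRalpha/ERRgamma class by 0.22 in soleus and 0.41 in EDL. Ucp2 was higher in wild-type soleus than in wild-type EDL by 1.07 ± 0.23.

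The 6 members that were not tested were close to the detection limit. Slc25a2 had a value in 18 of 36 libraries, Slc25a21 in 13, Slc25a31, the ADP/ATP carrier of testis, in 10, Slc25a41 and Slc25a43 in 9 each and Slc25a48 in 1. Their highest log2 signals lay between -4.65 (Slc25a48) and -2.11 (Slc25a2). Slc25a21, the 2-oxoadipate carrier, had a value in all 3 knockout-labelled EDL libraries of the ERRalpha/ERRgamma class (-3.88, -3.87 and -2.68), and in 1 of its 3 wild types (-4.88). Of 1644 stretches of 50 bases in Slc25a5 transcripts 91 also occur in Slc25a5-ps, and 0 were shared between Slc25a4 and Slc25a5 or between Slc25a12 and Slc25a13. Exons of Slc25a11 overlap those of Rnf167, and exons of Slc25a26 those of Lrig1, on the opposite strand. Whether counting used the strand is not stated, so reads of such partners may not have been told apart.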

How the data were processed

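The 36 libraries were made from total RNA with a directional kit, per the labels' protocols. The single deposited table holds log2 signals that the authors quantile normalized, as its name says. Partek 6.6 and the builds GRCm38.p6 and mm10 come from the submitters' processing notes; aligner, counting method and prior unit are not stated there. That the log has base 2 was checked on the values: of 18115 values above the lowest of 1440 rare genes, 4083 lay 0.9 to 1.3 and 1486 lay 1.5 to 1.8 above it, and 115 lay 0.4 to 0.8 above it. Read totals are lost, so depth is unknown. Empty cells were read as not detected.

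Columns were matched by muscle, class letters and Cre mark, FXp being read as knockout and FX- as wild type. In EDL the ERRalpha columns lack a class letter; the animal number shared with a soleus column placed them. No column names a replicate, and library numbers only follow the columns. The series design calls the 3 libraries of each group biological replicates. The animal numbers pair soleus and EDL of 14 of 22 animals, since they name the same animal. The deviations from group means correlated by -0.068 to 0.32 within these pairs, in 7 of 14 over 0.1, with a consensus correlation of 0.13.

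Genes were kept where their mean, with missing values at the lowest value (-8.21), exceeded the 25th percentile of gene means (-5.24), which left 13404 of 17873 genes. A further 27 rows with symbols turned into dates were left out. Missing values stayed missing, and no pseudocount was added. The 14 contrasts were fitted in R 4.3.3 by limma 3.58.1, giving each group 1 mean over all 36 libraries and letting the prior variance follow intensity. Calls used a Benjamini-Hochberg adjusted p under 0.05 over all genes of a contrast. The script was tested on simulated data. Shares of the family were taken on linear signals, with missing values as 0. Exon positions came from the GENCODE annotation of GRCm38.

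The members, gene lists and tests were chosen with earlier results of these data known. The rule for named members was Slc25a4, Slc25a5, Slc25a3, Slc25a20, Slc25a11, Slc25a12, Slc25a13 and Slc25a25 in each comparison of 2 groups or muscles, with up to 6 of the largest called rises and falls, and up to 4 called members in differences of changes. Named beyond it, after their values were seen, were further called members and Slc25a21. A comparison of proteins was planned and not made, and 1 tested member, which the counts include, is not reported here. Alternatives were no filter, a filter at the median, missing values at the lowest value, a pseudocount of 1, recentred libraries, no intensity trend, a block for the animal, fits of only the groups compared and leaving out each library.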

Additional observations from a re-analysis of the deposited data

Results flagged for a closer look

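In wild-type soleus library 1 of the ERRbeta/ERRgamma class was far below the other 8 for Slc25a4 (11.73, with the nearest at 12.05), and another, library 2 of the same class, for Slc25a34 (3.49, with the nearest at 4.09). In wild-type EDL 1 library was far above the others for Slc25a12 (6.11, with the nearest at 5.90). The test asks whether the gap to the nearest library exceeds a critical share of the range, and chance marks about 1 in 20 groups; here 3 of 32 were marked.

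The other results are changes in the ERRalpha/ERRgamma class that differed between soleus and EDL in a test of that difference: Slc25a3 (0.72), Slc25a39 (0.64), Slc25a11 (0.63) and Slc25a12 (0.55), soleus minus EDL on the log2 scale. Slc25a39 fell in EDL of this class and was higher in knockout-labelled soleus of the ERRalpha class.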

How the results depend on the processing

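No member reversed its direction while called. Fitted on only the groups compared, the counts of called members were 0 in both muscles for ERRalpha, 0 in soleus of the ERRbeta/ERRgamma class and 0 for the ERRalpha/ERRgamma minus ERRbeta/ERRgamma change in soleus, where a filter at the median gave 3. Without an intensity trend 3 members, not 5, differed between muscles in the ERRalpha/ERRgamma class. Fits of only the groups compared also hold fewer libraries. The causes of these differences were not tested. The block for the animal, which pairs soleus and EDL, lost 0 calls and added 3: Slc25a28 in EDL of the ERRalpha/ERRgamma class (-0.37, 16 called) and between wild-type muscles (-0.17, 28 called), and Slc25a39 in the EDL difference from the ERRbeta/ERRgamma class (-0.53, 10 called).

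Leaving out 1 library gave 11 to 14 called members in soleus and 11 to 15 in EDL of the ERRalpha/ERRgamma class, 6 to 11 in soleus and 0 to 0 in EDL for ERRbeta/ERRgamma, 0 to 2 in soleus and 1 to 3 in EDL of the ERRalpha class, and 23 to 27 between wild-type muscles. For differences between muscles it gave 1 to 4 (ERRalpha/ERRgamma), 0 to 2 (ERRbeta/ERRgamma) and 0 to 0 (ERRalpha). For the ERRalpha/ERRgamma change minus that of ERRalpha it gave 5 to 11 in soleus and 6 to 9 in EDL, and minus that of ERRbeta/ERRgamma 1 to 4 and 7 to 10. Over all genes, leaving out 1 library of the ERRalpha/ERRgamma class gave 1234 to 1436 calls in soleus and 1871 to 2014 in EDL. The fit of all libraries gave 1700 and 2416. For the other comparisons these ranges over all genes are not given here.

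Called in every fit tried were 9 of 14 members in soleus and 11 of 15 in EDL of the ERRalpha/ERRgamma class, 21 of 27 between wild-type muscles, and 0 of 9, 0 of 3 and 0 of 3 in soleus for ERRbeta/ERRgamma and in both muscles for ERRalpha. The 3 libraries a group, the unknown depth and the quantile normalization, which fixes each library's distribution, limit the precision.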
